A study of Mus musculus with 6 samples.

Results

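Expression of 9 genes of intestinal sugar handling was described in ileal mucosa of duoxa-/- and wt mice, taken from the end of the small bowel. They were the sugar transporter genes Slc2a2, Slc2a5, Slc5a1, Slc5a4a and Slc5a4b, the fructolysis gene Khk and the gluconeogenesis genes G6pc, Fbp1 and Pck1. Every probe set whose platform annotation gave exactly 1 of these symbols was taken, which found 12 probe sets for the 9 genes, of 45037 probe sets and 18193 genes on the array. The genes were chosen with the genotype differences of these same arrays known, Slc2a2 and Slc5a4a being among the larger ones, so their genotype values are a description and carry no test. The study compared duoxa-/- mice, which lack the maturation factors of the dual oxidases DUOX1 and DUOX2, with their wt littermates in the same cages. All animals were female, 3 months old and on the 129S6 background, and the labels name no treatment. There were 3 duoxa-/- and 3 wt samples, 1 of each from each of 3 cages, and a cage held 1 litter. Each sample was RNA pooled from 2 to 3 animals and was read on 1 array, so the spread within a group is that between pools, and the animals within a pool cannot be seen apart.

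Sugars cross the enterocyte in steps. Digestion at the brush border releases glucose, galactose and fructose. SGLT1, the product of Slc5a1, takes up glucose and galactose together with sodium, and GLUT5, the product of Slc2a5, takes up fructose. GLUT2, the product of Slc2a2, lets sugars out on the blood side. Ketohexokinase, the product of Khk, phosphorylates fructose and so commits it to breakdown. Phosphoenolpyruvate carboxykinase (Pck1), fructose-bisphosphatase (Fbp1) and the catalytic subunit of glucose-6-phosphatase (G6pc) carry the steps of gluconeogenesis that bypass the irreversible steps of glycolysis, and they are best known in liver, kidney and small intestine. The small intestine handles most sugar in its proximal part, so the terminal ileum is not the main site of these genes.

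The 2 SGLT3-type genes are neighbours in the mouse genome. In RefSeq's annotation of GRCm38.p6, Slc5a4b lies at chr10:76058618-76111018 and Slc5a4a at chr10:76147451-76189265, with 36432 bases between them. Their promoters are shown because both genes had the largest mean differences between genotypes among the 9. RefSeq's promoter windows hold 250 bases before and 50 after a gene's start, and all 9 genes matched a window in that table. Capitals mark the longest run the 2 windows share, 10 bases that begin at base 7 after the start in Slc5a4a and at base 10 in Slc5a4b, counting the start as base 1.
Slc5a4a, chr10:76147201-76147500, plus strand: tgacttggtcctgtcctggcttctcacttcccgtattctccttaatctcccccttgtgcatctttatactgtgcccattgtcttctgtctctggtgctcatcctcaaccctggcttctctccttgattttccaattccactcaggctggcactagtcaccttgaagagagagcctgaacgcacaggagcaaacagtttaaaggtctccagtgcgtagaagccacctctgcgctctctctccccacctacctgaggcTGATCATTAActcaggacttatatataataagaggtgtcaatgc
Slc5a4b, chr10:76110969-76111268, minus strand: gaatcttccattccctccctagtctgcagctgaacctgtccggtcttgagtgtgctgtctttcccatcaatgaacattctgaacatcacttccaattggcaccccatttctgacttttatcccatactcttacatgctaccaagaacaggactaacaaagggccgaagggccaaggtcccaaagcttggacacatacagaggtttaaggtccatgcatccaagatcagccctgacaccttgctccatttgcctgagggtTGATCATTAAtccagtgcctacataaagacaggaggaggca
The run TGATCATTAA, read on both strands, occurs in 12 of 32851 promoter windows (0.0365%). It was looked for after the sequences had been seen.

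The promoters of Pck1 and G6pc are shown because these genes of 1 pathway differed over the pools, as described below. Capitals mark TTACGTCA, the cAMP response element of Pck1, which begins 93 bases before the start, and in G6pc the motif GTTAATNAT of the hepatocyte nuclear factor HNF1, which begins 221 bases before the start.
Pck1, chr2:173152823-173153122, plus strand: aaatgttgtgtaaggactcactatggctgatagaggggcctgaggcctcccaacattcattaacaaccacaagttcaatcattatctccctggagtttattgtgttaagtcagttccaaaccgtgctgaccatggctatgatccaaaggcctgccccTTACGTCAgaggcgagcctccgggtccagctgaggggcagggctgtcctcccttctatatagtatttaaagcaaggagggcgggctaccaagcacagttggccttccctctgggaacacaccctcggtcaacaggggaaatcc
G6pc, chr11:101367466-101367765, plus strand: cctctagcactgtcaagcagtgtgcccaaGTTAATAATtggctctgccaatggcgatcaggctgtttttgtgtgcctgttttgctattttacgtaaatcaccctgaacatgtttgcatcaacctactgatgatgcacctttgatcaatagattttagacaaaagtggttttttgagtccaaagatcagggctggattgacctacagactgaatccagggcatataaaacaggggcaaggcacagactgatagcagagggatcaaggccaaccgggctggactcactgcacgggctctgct
On both strands, TTACGTCA stands in 0.499% of the 32851 windows and, among the 9 genes, in Pck1 alone. GTTAATNAT, an HNF1 motif searched without its last letter, stands in 0.801% of all windows and in those of G6pc and Slc5a4a. In Slc5a4a it lies on the opposite strand and overlaps the run marked above. The shorter HNF1 core GTTAAT, which is part of GTTAATNAT, stands in 7.1% of all windows and in those of Pck1, Khk, Slc5a4a and G6pc. The E-box CACGTG, the core of the sites that the carbohydrate-response factor ChREBP binds, stands in 7.15% of all windows and in those of Khk and Slc5a1. The HNF4 motif CAAAGTCCA, present in 0.475% of all windows, was in 0 of the 9. A match of letters is not a binding site.

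The values are log2 summaries of probe sets, so a difference of 1 is a 2-fold difference, and values of different probe sets were not set against each other. Array medians lay between 6.55 and 6.60, and pairs of arrays had r of 0.994 to 0.998 over all probe sets. Duoxa2, a maturation factor gene of the deleted locus, read 5.90, 5.55 and 5.92 in the duoxa-/- pools of cages 1, 2 and 3, against 8.81, 8.36 and 7.24 in the wt pools, so all duoxa-/- pools lay below all wt pools. The labels do not say whether this probe set lies inside the deleted part. Duoxa1, also a maturation factor gene, read 6.22, 5.92 and 6.33 in duoxa-/- pools and 6.41, 6.26 and 6.25 in wt pools, with overlapping groups. All of these values lay below 6.58, the median of all probe sets, so this probe set was dim in both genotypes. Over all 18193 genes, limma called 0 genes between genotypes at an adjusted p under 0.05 (0% called). The smallest limma adjusted p was 0.760, and Duoxa2 itself had this value, at a difference of -2.34 (SE 0.34). At an unadjusted p under 0.05 there were 1006 genes, where chance alone would give 910. With cage as a block, limma also called 0 genes, with 1166 at an unadjusted p under 0.05. Markers of the tissue were bright: the 6 ileal enterocyte genes and the 6 epithelial genes all lay at or above 6.58, the median of all probe sets. All 9 sugar genes did so too, the lowest mean being 7.05 for G6pc.

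Slc2a2, the gene of GLUT2, was lower in the duoxa-/- pool of every cage. It read 7.04, 7.15 and 8.33 in the duoxa-/- pools of cages 1, 2 and 3, against 8.23, 7.47 and 8.78 in the wt pools. The cage 3 pools were the highest of each genotype, and the genotypes overlapped because the duoxa-/- pool of cage 3 lay above 2 of the 3 wt pools. The means were 7.51 ± 0.72 in duoxa-/- and 8.16 ± 0.66 in wt pools (SD, n = 3 each), a difference of -0.65 (SE 0.40), or 1.57-fold lower. Within cages it was 2.28-fold lower in cage 1, 1.25-fold in cage 2 and 1.36-fold in cage 3. Leaving out 1 pool at a time gave -0.34 without the wt pool of cage 3 to -1.06 without the duoxa-/- pool of cage 3.

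Slc2a5, the gene of the fructose transporter GLUT5, had the most even difference of the 9 in relation to its size. It read 8.33, 8.22 and 8.87 in duoxa-/- pools, against 8.73, 8.80 and 9.38 in wt pools of the same cages. Each duoxa-/- pool lay below the wt pool of its cage, while the duoxa-/- pool of cage 3 lay above the wt pools of cages 1 and 2. The difference was -0.50 ± 0.09 (SD over 3 cages), from -0.58 in cage 2 to -0.41 in cage 1, which is 1.41-fold lower on average. The SE of the same difference was 0.21 without regard to cage, since the pools of 1 genotype spread by an SD of 0.35 in each group. Without the wt pool of cage 3 the difference was -0.29, and without the duoxa-/- pool of cage 3 it was -0.70.

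**Figure D1:**
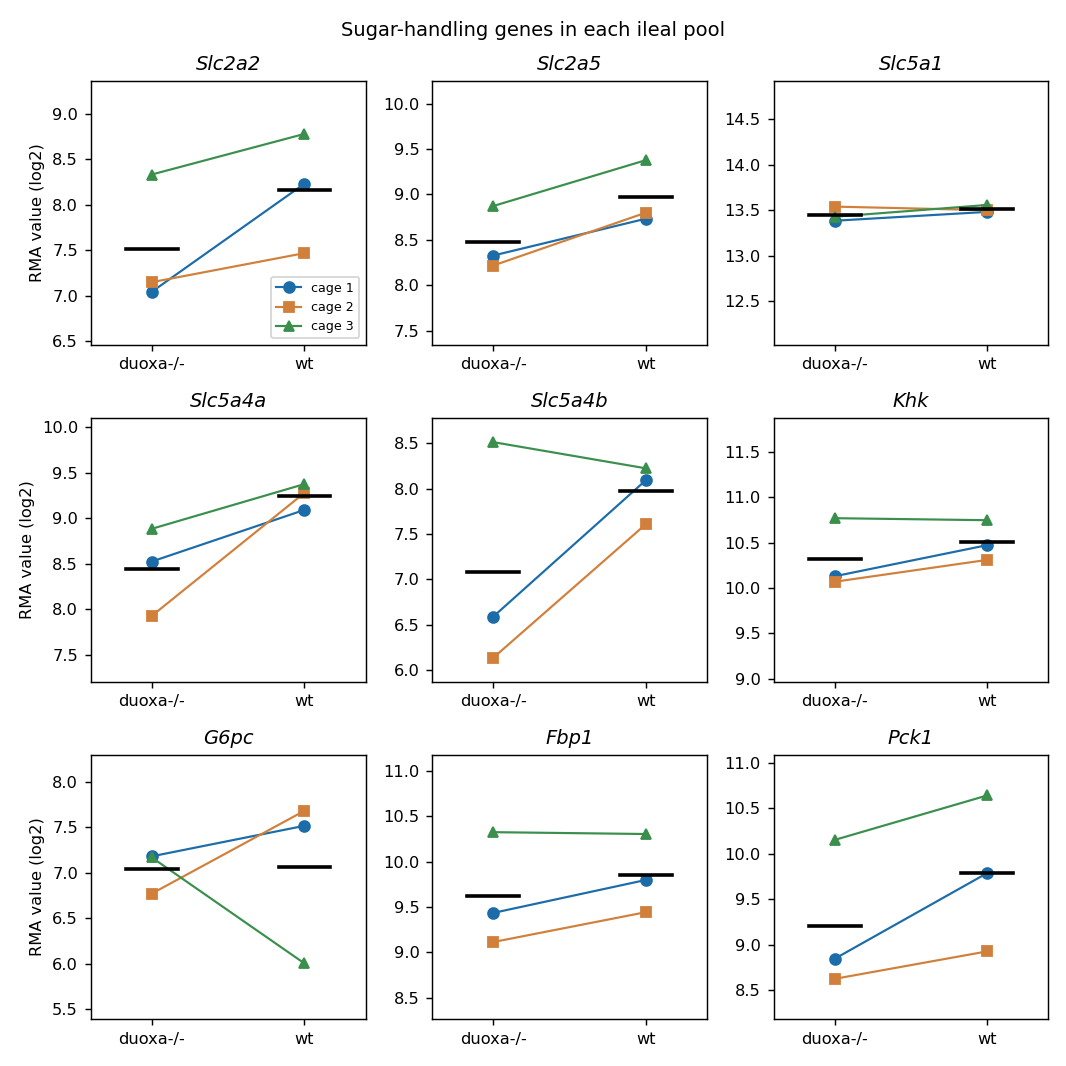
RMA values (log2, vertical axis) of the 9 sugar genes in duoxa-/- pools (left) and wt pools (right), with the 2 pools of a cage joined by a line and the mean of 3 pools as a black bar; every panel spans the same range of log2 units. The Slc5a1 lines are flat near 13.5, the cage 3 lines lie on top for Slc2a2, Slc2a5, Slc5a4b, Khk, Fbp1 and Pck1, and the G6pc line of cage 3 runs against the others.

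Slc5a1, the gene of the sodium-coupled glucose transporter SGLT1, was almost level over the pools on its brightest probe set. It read 13.39, 13.54 and 13.43 in duoxa-/- pools and 13.48, 13.50 and 13.56 in wt pools, with overlapping groups and a difference of -0.063 (95% interval -0.24 to 0.12, limma). A second probe set differed by -0.17, with 12.80 ± 0.07 in duoxa-/- and 12.98 ± 0.09 in wt pools (SD, n = 3 each). On it the genotypes did not overlap, with 12.72 to 12.85 in duoxa-/- and 12.89 to 13.07 in wt pools, and each duoxa-/- pool lay below the wt pool of its cage, so the 2 probe sets of the gene disagree on overlap. At these levels, at the 99.3 percentile of all probe sets, intensities can saturate, which was not tested because no raw intensities were used.

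Slc5a4a and Slc5a4b encode mouse SGLT3-type proteins, whose human counterpart SLC5A4 has been described as a glucose sensor rather than a transporter. Slc5a4a read 8.52, 7.92 and 8.88 in the duoxa-/- pools of cages 1, 2 and 3, against 9.09, 9.28 and 9.37 in wt pools. By the brightest probe set of each gene, it was the one sugar gene whose genotypes did not overlap, every duoxa-/- pool lying below every wt pool; over all genes 6.46% had this pattern, and as the genes were chosen on this contrast nothing is read from the count. The wt pools kept within an SD of 0.14 and the duoxa-/- pools spread by an SD of 0.48. The difference was -0.80 (SE 0.22), or 1.75-fold lower, and it was larger in cage 2 (2.56-fold) than in cage 1 (1.48-fold) or cage 3 (1.41-fold).

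The neighbouring Slc5a4b did not follow it in cage 3. Slc5a4b read 6.59, 6.14 and 8.51 in duoxa-/- pools, against 8.09, 7.61 and 8.22 in wt pools. The gene was 2.83-fold lower in the duoxa-/- pool of cage 1 and 2.77-fold lower in that of cage 2, while in cage 3 the duoxa-/- pool lay 0.29 above its wt partner. The mean difference of -0.89 was the largest of the 9 and also had the largest SE, 0.53. Without the duoxa-/- pool of cage 3 the difference was -1.61, and without that of cage 2 it was -0.42. The 2 paralogues have 1 probe set each, both of the kind designed to match a single transcript group, and whether either probe set also reads the other gene was not tested.

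Khk, the gene of ketohexokinase, differed little. It read 10.13, 10.07 and 10.77 in duoxa-/- pools and 10.47, 10.31 and 10.75 in wt pools. The duoxa-/- pools of cages 1 and 2 lay below their wt partners, with differences of -0.34 and -0.24, the 2 pools of cage 3 were level, with a difference of 0.022, and the groups overlapped. The mean difference was -0.19 (95% interval -0.63 to 0.26, limma), and leaving out 1 pool at a time moved it between -0.41 (duoxa-/- pool of cage 3 left out) and -0.060 (duoxa-/- pool of cage 2 left out).

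Of the gluconeogenesis genes, Pck1 was lower in the duoxa-/- pool of each cage. Its brightest probe set read 8.84, 8.62 and 10.15 in duoxa-/- pools, against 9.79, 8.93 and 10.64 in wt pools. The difference was -0.58, or 1.49-fold lower, with an SE of 0.49 without a cage term and 0.13 with cage as a block. The groups overlapped over most of their range because cages differed by more than genotypes did. Leaving out the wt pool of cage 3 left a difference of -0.15, and leaving out the duoxa-/- pool of cage 3 one of -1.05. A second Pck1 probe set had differences of -0.87, 0.047 and -0.11 in cages 1, 2 and 3, so it shared the direction in 2 of 3 cages. The third lay between 3.63 and 3.96 in all pools, near the lowest value of the table, 3.13.

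Fbp1, the gene of fructose-bisphosphatase, read 9.44, 9.12 and 10.32 in duoxa-/- pools and 9.80, 9.44 and 10.30 in wt pools. As for Khk, the duoxa-/- pools of cages 1 and 2 were the lower of their pairs, with differences of -0.36 and -0.33, and the pair of cage 3 was level at 0.020. The mean difference was -0.22 (SE 0.31), and it turned to 0.0037 without the wt pool of cage 3 and to 0.031 without the duoxa-/- pool of cage 2.

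Like Slc5a4b, G6pc, which encodes the last enzyme of glucose release, changed direction in cage 3. It read 7.18, 6.77 and 7.17 in duoxa-/- pools and 7.52, 7.68 and 6.001 in wt pools. The wt pool of cage 3 was the lowest of the 6, so the gene was 1.26-fold lower in the duoxa-/- pool of cage 1, 1.88-fold lower in that of cage 2 and 2.24-fold higher in that of cage 3. These opposite differences left a mean of -0.027 (SE 0.39), whose sign turned under 7 of 17 alternatives, quantile normalization and array weights among them.

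Over the 9 genes, all means were lower in duoxa-/- pools, as were those of 53.9% of all genes, and 4 genes (Slc2a2, Slc2a5, Slc5a4a and Pck1) were lower in all 3 cages, as were 16.6% of all genes. The sign of the mean held under all 17 alternatives for 7 of the 9, the exceptions being G6pc and Fbp1. Some of the 17 left every difference of the 9 as it was, so they could not turn a sign. These were both cage blocks, the intensity trend and the limits on cross-hybridising and dim probe sets. The median of the 9 differences was -0.50, against -0.012 over all genes. By cage, 1 to 3, the median of the 9 was -0.41, -0.33 and -0.13. It moved to -0.29 without the duoxa-/- pool of cage 2, to -0.29 without the wt pool of cage 3 and to -0.70 without the duoxa-/- pool of cage 3. Since the genes were chosen on this contrast, these counts support nothing about the list.

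**Figure D2:**
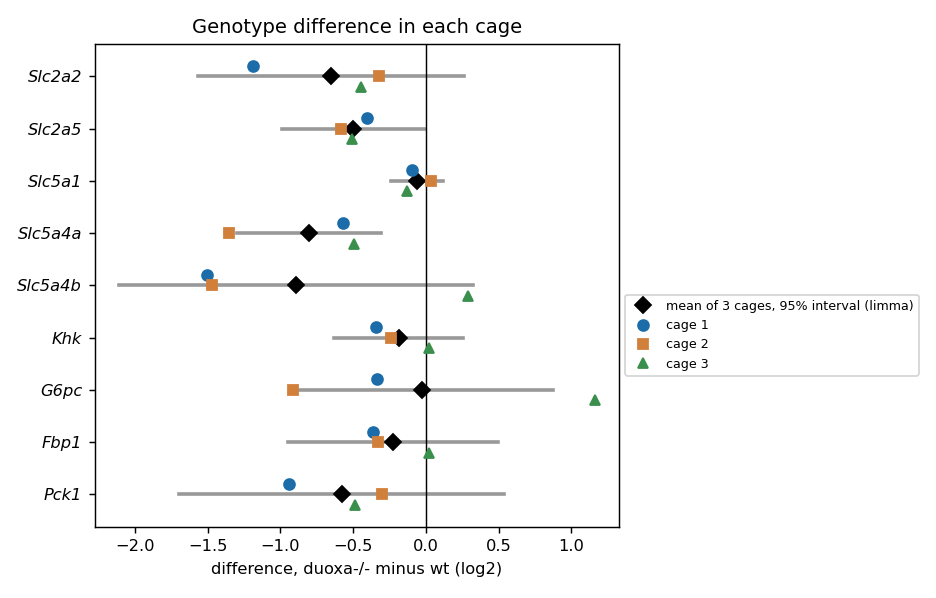
Difference between the duoxa-/- and the wt pool (log2, horizontal axis) for each of the 9 sugar genes in cage 1 (circle), cage 2 (square) and cage 3 (triangle), with the mean of the 3 cages (diamond) and limma's 95% interval without a cage term (grey line). The 3 Slc2a5 points lie between -0.58 and -0.41, while the cage 3 points of Slc5a4b and G6pc stand at 0.29 and 1.17 on the far side of 0 from cages 1 and 2.

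Markers of cell types were set beside these values, and limma called 0 of them between genotypes. Over all genes, 53.9% had lower duoxa-/- means and 16.6% were lower in all 3 cages. The mean level of the 11 measured of 12 enterocyte genes was 12.46 to 12.80 in duoxa-/- pools and 12.71 to 12.90 in wt pools, and 10 of the 11 were lower in duoxa-/- means, with a median difference of -0.094. The 6 of 6 ileal enterocyte genes averaged 12.84 to 13.07 in duoxa-/- and 12.94 to 13.14 in wt pools. The 6 of 6 epithelial genes were level, at 13.76 to 13.78 in duoxa-/- and 13.74 to 13.79 in wt pools. Smooth muscle genes (8 of 8) averaged 11.57 to 11.97 in duoxa-/- and 11.75 to 12.35 in wt pools, with the highest value in the wt pool of cage 1; 8 of 8 were lower in duoxa-/- means, with a median difference of -0.24, and 0 were lower in all 3 cages. Genes of the proximal small intestine (8 of 8) averaged 7.53 to 7.64 in duoxa-/- and 7.58 to 7.81 in wt pools, and 6 of the 8 were lower in duoxa-/- means, with a median of -0.095. Only 4 of the 8 lay at or above the median of all probe sets. T cell genes (7 of 8) averaged 7.30 to 7.59 in duoxa-/- and 7.29 to 7.78 in wt pools, and B and plasma cell genes (6 of 7) 10.53 to 10.84 in duoxa-/- and 10.35 to 10.68 in wt pools. Goblet cell genes (6 of 6) averaged 14.18 to 14.20 in duoxa-/- and 14.15 to 14.27 in wt pools, and crypt genes (6 of 7) 10.74 to 10.80 in duoxa-/- and 10.62 to 10.72 in wt pools. Lower duoxa-/- means were found in 4 of 6 ileal enterocyte genes (median difference -0.059), 4 of 6 epithelial (-0.0068) and 6 of 7 T cell genes (-0.12). They were found in 1 of 6 B and plasma cell genes (0.13), 3 of 6 goblet cell (0.0027) and 2 of 6 crypt genes (0.15). The part of the markers in the sugar gene differences was not tested, and in a whole mucosa fewer cells of a type and less RNA per cell cannot be told apart. Among liver and pancreas genes (7 of 8, 6.93 to 7.02 in duoxa-/- and 6.95 to 7.27 in wt pools), 5 of the 7 lay at or above the median of all probe sets, while Alb was dim, at 4.95 in duoxa-/- and 5.03 in wt pools. Apoh, of that list, read 7.36, 8.28 and 7.09 in the duoxa-/- pools of cages 1, 2 and 3 and 9.02, 7.51 and 7.37 in wt pools.

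Litters offered a comparison other than the genotype contrast, although the genes were chosen with earlier results of these data known. Both pools of cage 3 lay above the 4 other pools for 6 of the 9 genes, Slc2a2, Slc2a5, Slc5a4b, Khk, Fbp1 and Pck1, as they did for 8.4% of all genes. These 6 genes varied together over the arrays, as described below, so they are not 6 separate observations. With genotype in the fit, limma's F-test between cages called 0 of the 9, and 2 of 18193 genes (0.011%) in all, at an adjusted p under 0.05. At an unadjusted p under 0.05 it counted 6 of the 9, against 6.21% of all genes. The smallest adjusted p among the 9 was 0.202, for Pck1 and Fbp1, and the largest 0.951, for Slc5a1. A contrast of cage 3 with the mean of cages 1 and 2, chosen after the values had been seen, also called 0 of the 9 and 3 genes in all (0.0165%), with a smallest adjusted p of 0.077 for Pck1.

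Pck1 had the largest litter difference. It averaged 10.40 in cage 3, against 9.32 in cage 1 and 8.77 in cage 2, and cage 3 exceeded the mean of the other cages by 1.35 (SE 0.14), or 2.55-fold. Slc5a4b followed with 1.26 (SE 0.35), Slc2a2 with 1.08 (SE 0.18) and Fbp1 with 0.87 (SE 0.11). Slc2a5 was higher in cage 3 by 0.61 (SE 0.09), Khk by 0.51 (SE 0.11) and Slc5a4a by 0.42 (SE 0.18). Slc5a1 was level between litters, at 0.017 (SE 0.09), and G6pc was lower in cage 3 by a log2 difference of -0.70 (SE 0.36). These SEs come from a fit with genotype as a term. The genotype SEs given above have no cage term unless stated, so they are not to be set beside those between litters.

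The 2 genotypes gave the litter difference separately. In 7 of the 9 genes, cage 3 exceeded the mean of cages 1 and 2 in duoxa-/- pools and in wt pools alike, as it did in 26.3% of all genes. For Pck1 the excess was 1.42 among duoxa-/- pools and 1.28 among wt pools, and for Slc2a5 it was 0.60 among duoxa-/- and 0.61 among wt pools. Slc5a4b differed, with 2.15 among duoxa-/- and 0.37 among wt pools. For G6pc the values had opposite signs, 0.19 among duoxa-/- and -1.60 among wt pools. Over all pools, cage 3 minus cage 1 was 0.92 for Slc2a2, 1.08 for Pck1 and 1.02 for Slc5a4b. Without the wt pool of cage 1 it was 1.32 for Slc2a2 and 1.35 for Pck1. Without the duoxa-/- pool of cage 1 it was 0.52 for Slc2a2 and 0.81 for Pck1. For Slc5a4b it was 1.91 without the wt pool of cage 3. Each of these fits keeps 1 pool in a cage, so no call is read from them.

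**Figure D3:**
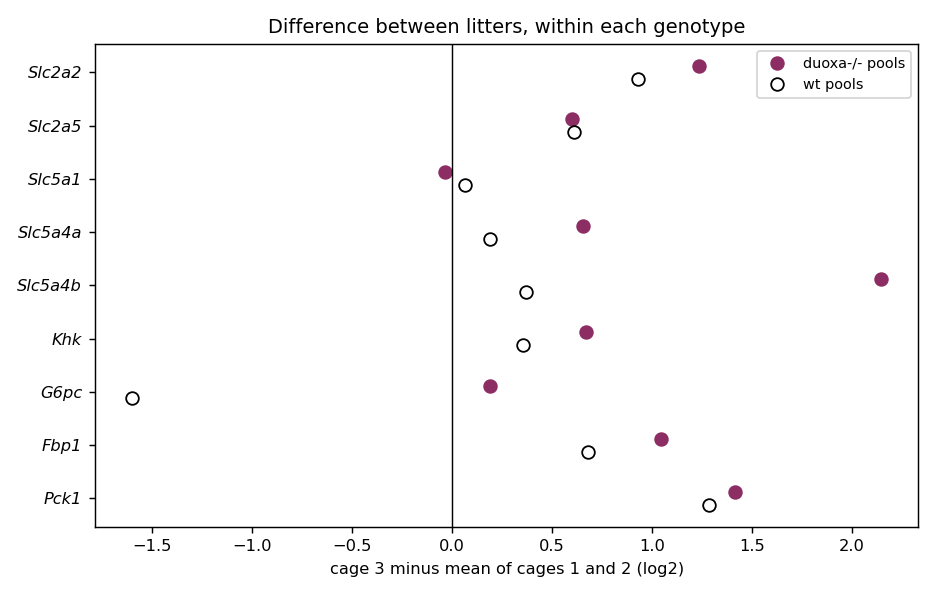
Cage 3 minus the mean of cages 1 and 2 (log2, horizontal axis) among duoxa-/- pools (filled) and among wt pools (open) for each of the 9 sugar genes; each point rests on 3 pools. Points of both genotypes lie above 0 for 7 genes, Slc5a1 lies near 0, and the wt point of G6pc stands alone at -1.60.

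Absorptive markers were compared between cages in the same way, and limma's F-test called 0 of them, with a smallest adjusted p of 0.651 among ileal enterocyte genes and 0.260 among enterocyte genes. All 6 ileal enterocyte genes were higher in cage 3 than in the mean of cages 1 and 2, with a median of 0.16, and 3 of the 6 had both cage 3 pools on top, against 8.4% of all genes. Of the 11 enterocyte genes, 9 were higher in cage 3, with a median of 0.11. The median of the same difference over all genes was -0.0067. The part of the absorptive markers in the litter difference of the sugar genes was not tested. Of the variation of a gene over the 6 pools, cage accounted for a median of 56.3% and genotype for 25.2% in the 9 genes, and for 38.5% and 15.8% over all genes. Cage accounted for 90.3% in Fbp1 and 81.7% in Pck1. By the brightest probe sets, Slc5a4a was the one gene of the 9 in which genotype had the larger share, 65.6% against 19.1% for cage. The second Slc5a1 probe set had 61.7% for genotype and 2.72% for cage. With 3 cages and 2 genotypes, cage can take up more of the variation by its number of levels alone.

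The sugar genes fell into levels of likeness over the 6 arrays. In a set chosen after the values had been seen, Slc2a2, Slc2a5, Slc5a4b, Khk, Fbp1 and Pck1, the 15 pairs had r of 0.84 to 0.98 (n = 6 arrays). Slc5a4a correlated with these 6 genes with r of 0.65 to 0.86, and Slc5a1 with all others with r of -0.52 to 0.38. G6pc had r of -0.52 to 0.032 with the others. The arrays share cages and genotypes, so these values describe the pools and do not count as independent observations.

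**Figure D4:**
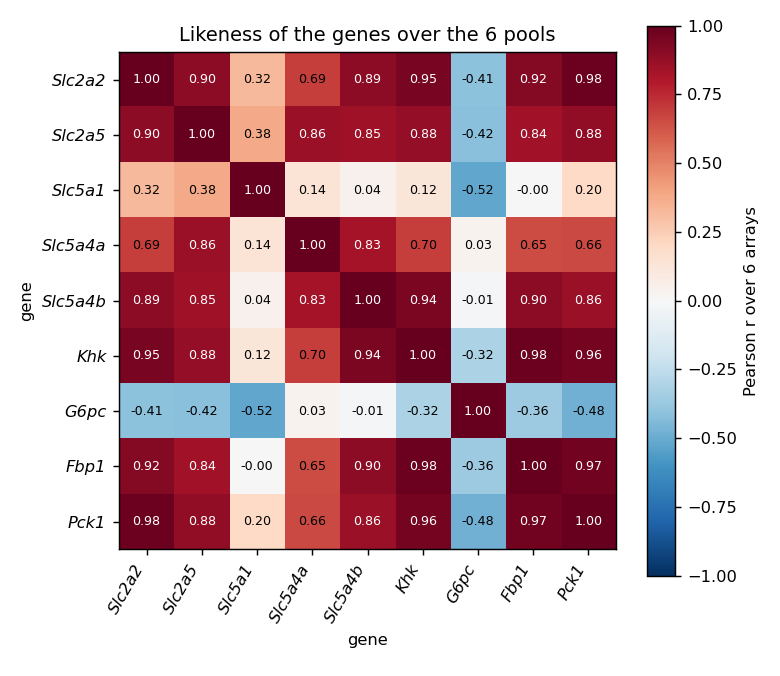
Pearson r over the 6 arrays (colour and printed value) for each pair of the 9 sugar genes. Slc2a2, Slc2a5, Slc5a4b, Khk, Fbp1 and Pck1 form a block with r of 0.84 or more, while Slc5a1 and G6pc stand apart with r of 0.38 or less to every other gene.

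Among 1966 other genes with a mean of at least 6.58 and an SD over arrays of at least 0.2, those most like Slc2a2 over the 6 arrays were the muscle-type enolase gene Eno3 (r = 0.99), the tensin gene Tns4 (0.99), the brush-border scaffold gene Pdzk1 (0.98), Odf3b (0.97) and the organic cation exporter gene Slc47a1 (0.97). Slc47a1 was lower in duoxa-/- means by a log2 difference of -0.59 and higher in cage 3 by 1.07. The mean of the 9 genes was most like Ppara (r = 0.99), the gene of a fatty acid-sensing nuclear receptor, then Slc37a4 (0.99), the gene of the glucose-6-phosphate transporter of the endoplasmic reticulum, the arginase gene Arg2 (0.99), Ttc39c (0.98) and the mitophagy receptor gene Bnip3 (0.98). Ppara read 8.78, 8.49 and 9.36 in duoxa-/- pools and 9.23, 9.06 and 9.55 in wt pools, so its duoxa-/- pool was the lower of the pair in each cage and its cage 3 pools were the highest of each genotype.

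Other genes of the same pathways are given by list, and limma called 0 of them by genotype and 0 between cages in each list below. Some of them had larger differences than Khk, Fbp1, Slc5a1 and G6pc, and whether the lists differ from the 9 genes was not tested. For this list and those below, the shares over all genes were 53.9% with lower duoxa-/- means and 16.6% lower in all 3 cages. Of 15 further gluconeogenesis genes, 14 had lower duoxa-/- means and 9 were lower in all 3 cages, with a median difference of -0.10. The alanine aminotransferase gene Gpt had 10.47 ± 0.17 in duoxa-/- and 10.80 ± 0.14 in wt pools (SD, n = 3 each), a difference of -0.33 (SE 0.11). The glucose-6-phosphatase gene G6pc3, which is expressed in most tissues, differed by -0.20, the glycerol-3-phosphate dehydrogenase gene Gpd1 by -0.18 and the mitochondrial dicarboxylate carrier gene Slc25a10 by -0.14. Slc37a4 read 9.18 ± 0.24 in duoxa-/- and 9.39 ± 0.13 in wt pools (SD, n = 3 each).

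Of 21 further entries listed as fructolysis and glycolysis genes, 14 had lower duoxa-/- means and 6 were lower in all 3 cages, with a median of -0.041. The counts and the median include Nlk, with a difference of 0.024, which was matched through a synonym of Gpi1. Nlk is another gene and not one of glycolysis, and Gpi1 was not analysed here. Tkfc, the triokinase that acts after ketohexokinase in fructose breakdown, read 8.32, 8.02 and 8.50 in duoxa-/- pools and 8.59, 8.43 and 8.40 in wt pools, lower in 2 of 3 cages. The pyruvate kinase gene Pkm, expressed outside liver and red cells, differed by -0.49 (SE 0.14). Its groups did not overlap, with 9.87 to 10.05 in duoxa-/- and 10.20 to 10.77 in wt pools, a pattern that 6.46% of all genes had. Aldoa (-0.20) and Pfkm (-0.24) were also lower in all 3 cages. Gapdh was not analysed here.

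Of 15 further sugar transporter genes, 11 had lower duoxa-/- means, 5 were lower in all 3 cages and the median was -0.031. The insulin-responsive transporter gene Slc2a4 differed by -0.33, Slc2a8 by -0.23 and the neuronal-type transporter gene Slc2a3 by -0.21, each lower in all 3 cages, while the myo-inositol transporter gene Slc5a3 was higher in all 3, by 0.20. The 6 measured accessory and sweet-sensing genes had lower duoxa-/- means and a median of -0.056. They included the sodium pump subunit gene Atp1b1 (-0.045), the sweet taste receptor genes Tas1r2 (-0.21) and Tas1r3 (-0.063), and the taste channel gene Trpm5 (-0.42). Of the 9 polyol, galactose and pentose phosphate genes, 2 had lower duoxa-/- means and the median was 0.052. Among them, the galactose mutarotase gene Galm differed by -0.23, the transketolase gene Tkt by 0.070, Rpia by 0.077 and Rpe by 0.058.

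Among brush-border disaccharidases, maltase-glucoamylase (Mgam) differed by 0.0082 and lactase (Lct) was dim at 4.29 in duoxa-/- and 4.41 in wt pools. The trehalase gene Treh differed by -0.64 (SE 0.37), with 6.32, 5.58 and 7.25 in duoxa-/- pools and 7.42, 6.75 and 6.91 in wt pools, so that it was higher in the duoxa-/- pool of cage 3 alone; Sis was not analysed here. Of 21 regulators of sugar genes, 12 had lower duoxa-/- means, with a median of -0.035. Mlxipl, the gene of ChREBP, was lower in each cage, with differences of -0.24 to -0.12, while Ppara differed by -0.40, Cebpa by -0.35, Crtc2 by -0.24 and Creb1 by 0.24.

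**Figure D5:**
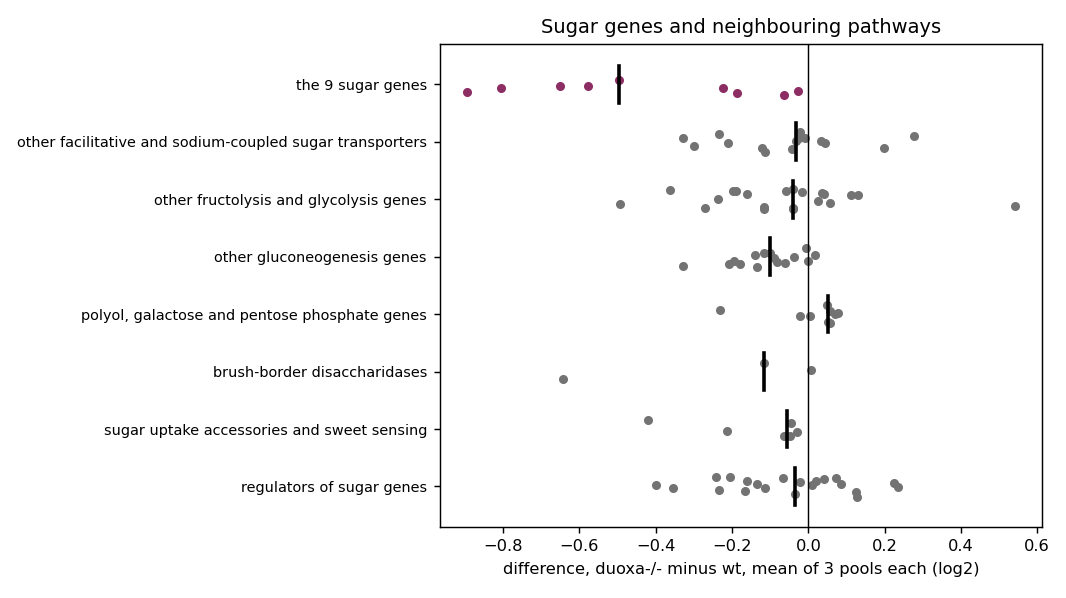
Difference of group means, duoxa-/- minus wt (log2, horizontal axis; 3 pools a group), for each of the 9 sugar genes (coloured) and each measured gene of 7 neighbouring lists (grey), with the median of each list as a black bar; points are spread vertically for legibility. The 9 genes, which were chosen on this difference, have a median of -0.50, and the 7 lists have medians between -0.12 and 0.052. The fructolysis and glycolysis list includes Nlk, matched in place of Gpi1.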

How the data were processed

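Per the labels' protocols, biotin-labelled RNA of each pool was read on its own single-colour array, 6 in all. Per the submitters' processing notes, the deposited log2 values are the authors' RMA output (affy package). RMA removes background, gives the arrays a common distribution and understates differences of dim probe sets. No label or file header used here names the software versions.

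The table had 45101 rows, 64 of them controls, which were dropped. Of the remaining 45037, 34945 had 1 gene symbol, 932 several and 9160 were unnamed here. Each of 18193 genes was represented by its brightest probe set over the 6 arrays. Genotypes were compared with limma 3.58.1 (R 4.3.3; lmFit, eBayes, Benjamini-Hochberg over all genes, no cage term), and cages with its moderated F-test, genotype being a term. Each adjusted p printed is limma's. Differences are duoxa-/- minus wt, each SD describes 3 pools of one genotype unless stated, SE and intervals are limma's, and the share of variation is a sum of squares over cage, genotype and the rest. The number of arrays limits the precision. Sequences came from RefSeq's promoter table of GRCm38.p6. The promoter motifs were chosen with the windows at hand, and the HNF1 motif was shortened by its last letter after a first search. Fits were tested on simulated data. Tables used Python 3.11.15 and pandas 2.3.3, figures matplotlib 3.10.9.

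The 9 genes and the 17 lists (184 entries, 161 measured) were chosen with earlier results of these data known. A listed symbol that was absent was sought by its synonyms, and the 161 include Nlk, a wrong match for Gpi1. The text names the 9 genes, up to 4 genes of each pathway list with the smallest genotype p, Tkfc, Sis and Mlxipl, and the 5 genes most alike in each of 2 searches. Some genes that this rule picks are not reported here. Slc37a4, Ppara, Slc47a1, Alb and Apoh get further values, chosen after those were seen. The design text makes each cage a litter, and so pairs its 2 pools. Their deviations from the group means had r of -0.18, 0.16 and 0.34 over genes in cages 1, 2 and 3. For a duoxa-/- and a wt pool of different cages, r ran from -0.44 (cage 3 duoxa-/- with cage 2 wt) to 0.40 (cage 1 duoxa-/- with cage 2 wt). The highest r was thus not that of a same-cage pair. The deviations of a genotype's pools are taken from their own mean, so these values of r depend on each other. They do not test the pairing.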

Additional observations from a re-analysis of the deposited data

Results flagged for a closer look

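Slc5a4b differed between genotypes in opposite directions in different cages. Its duoxa-/- pool lay below its wt pool in cages 1 and 2, with log2 differences of -1.50 and -1.47, and above it in cage 3, with 0.29. G6pc did likewise, with -0.34 in cage 1, -0.91 in cage 2 and 1.17 in cage 3. With 1 pool per genotype and cage, the difference between cages was not tested for either gene. In Slc5a4b the pool that stood apart within its genotype was the duoxa-/- pool of cage 3, and in G6pc the wt pool of cage 3.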

How the results depend on the processing

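The count of genes called between genotypes was 0 in the fit without a block and stayed 0 with cage as a replicate block (smallest adjusted p 0.741 over genes and 0 of all probe sets called), as a random block, with probe sets averaged per gene, without cross-hybridising probe sets, among genes at or above the median level, after quantile normalization, with array weights and with an intensity trend. It was 1 without both pools of cage 3, and 0 to 1 when single pools were left out, the 1 being without the wt pool of cage 3. The block changed no call. As every cage held both genotypes, it could not move a difference, but it changed the SE. With the block the SE was 0.13 for Pck1, 0.10 for Fbp1, 0.17 for Slc2a2 and 0.085 for Slc2a5. Without it, the SE was 0.49, 0.31, 0.40 and 0.21 in the same order. The SE was also lower with the block for the other genes of the 9 except Slc5a1, at 0.085 with and 0.077 without it. The median difference of the 9 genes was -0.50, -0.29 with probe sets averaged per gene, where Pck1 became the middle gene, and -0.70 to -0.29 when single pools were left out. Between cages, 2 genes were called, 0 with probe sets averaged, 0 among genes at or above the median level, 0 after quantile normalization, 0 with no genotype term, and 0 to 53 when single pools were left out. It was 53 without the duoxa-/- and 30 without the wt pool of cage 1, 22 without the wt pool of cage 3, and 0 without either pool of cage 2. Of the 9 genes, 0 were called between cages, and 0 to 2 when single pools were left out, where the fit keeps fewer degrees of freedom. The causes of these shifts were not tested. Without detection calls, a dim probe set was recognised by its level alone.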
